A study of Mus musculus with 12 samples.

Results

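Vascular endothelial genes were taken as the 6 genes Cldn5, Pecam1, Cdh5, Kdr, Tie1 and Tek, whose products sit at the junctions or on the surface of the cells that line blood vessels. Their loci, each the GENCODE M21 gene with 5 kb on both sides on mm10, were searched for differentially methylated regions (DMRs), stretches of neighbouring CpGs that the authors called as different between genotypes. The loci held 49 of 193836 regions called from whole-genome bisulfite sequencing (WGBS), which reads 5-methylcytosine (5mC) and 5-hydroxymethylcytosine (5hmC) together, and 146 of 592906 regions called from bACE-seq, which reads 5hmC alone. The rule that finds their regions uses position only, and the annotation lists 32093 protein-coding and long noncoding genes in all.

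Both assays were run on DNA of whole retina from C57 BL/6J mice at postnatal day 21 (P21). Of 12 libraries, 3 per genotype were made for each assay. The Cre- animals, whose genotype the labels give as WT, came from breeders without Cre. The Tet tcKO animals carried floxed Tet1, Tet2 and Tet3 and the Chx10::Cre-GFP transgene, which acts in retinal progenitors. DNA came from retinas of pooled animals. The lists give 1 mean level per genotype and region, so the spread between libraries and the depth behind a level were not analysed here, and no level or difference below has an error or a test of its own. A whole retina also averages over all its cells, so a level in endothelial cells cannot be told apart from a level in neurons and glia, and a shift in cell composition cannot be told apart from a shift within cells. The assays read DNA only, so the presence of endothelial cells was not checked by expression.

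TET enzymes oxidise 5mC to 5hmC, the first step of active demethylation, and 5hmC is abundant in the DNA of mature neurons. Retinal endothelial cells enter the eye with the growing vessels and do not arise from the retinal progenitors in which Chx10 is expressed. They are joined by tight and adherens junctions that form the inner blood-retina barrier, and their growth and quiescence are governed by VEGF and angiopoietin receptors.

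The sequences below show the ground on which these values were read, in 1 window of 200 bases for each gene, taken from the WGBS region with the most CpGs among those that reach within 2 kb of a start site of the gene. Each is written 5′ to 3′ on the strand of the gene from GRCm38 (mm10), and capitals mark the CpGs.
Cldn5, chr16:18777349-18777548, + strand: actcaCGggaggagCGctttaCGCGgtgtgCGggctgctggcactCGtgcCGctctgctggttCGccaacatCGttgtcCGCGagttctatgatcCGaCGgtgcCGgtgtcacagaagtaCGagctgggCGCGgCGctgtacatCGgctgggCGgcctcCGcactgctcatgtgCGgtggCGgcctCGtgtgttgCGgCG
Pecam1, chr11:106716021-106716220, - strand: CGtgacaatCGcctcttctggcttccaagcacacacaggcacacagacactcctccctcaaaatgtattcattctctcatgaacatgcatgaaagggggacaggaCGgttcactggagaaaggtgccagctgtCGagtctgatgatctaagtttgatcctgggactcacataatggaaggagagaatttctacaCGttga
Cdh5, chr8:104100055-104100254, + strand: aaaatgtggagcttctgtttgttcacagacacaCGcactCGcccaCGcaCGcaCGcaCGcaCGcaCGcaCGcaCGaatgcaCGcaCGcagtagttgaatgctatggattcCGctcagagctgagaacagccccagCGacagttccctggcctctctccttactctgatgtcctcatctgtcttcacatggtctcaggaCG
Kdr, chr5:75976197-75976396, - strand: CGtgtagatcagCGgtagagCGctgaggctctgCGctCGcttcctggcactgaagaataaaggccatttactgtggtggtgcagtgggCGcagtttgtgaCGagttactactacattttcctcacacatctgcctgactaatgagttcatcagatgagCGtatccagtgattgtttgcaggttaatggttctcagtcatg
Tie1, chr4:118487275-118487474, - strand: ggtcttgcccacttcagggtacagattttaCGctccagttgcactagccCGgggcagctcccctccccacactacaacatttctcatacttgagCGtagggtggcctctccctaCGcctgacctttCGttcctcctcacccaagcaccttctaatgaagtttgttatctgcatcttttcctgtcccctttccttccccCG
Tek, chr4:94738496-94738695, + strand: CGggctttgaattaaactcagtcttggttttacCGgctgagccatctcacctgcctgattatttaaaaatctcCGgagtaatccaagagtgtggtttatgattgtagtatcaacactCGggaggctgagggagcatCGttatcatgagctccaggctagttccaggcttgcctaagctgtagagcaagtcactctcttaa
Each window was chosen as the 200 bases of its region with the most CpGs and no untranslated base. Its CpG count is therefore the highest such count, not typical of the region. The windows differed widely in CpGs. The Cldn5 window, all of it coding sequence, held 26. The Cdh5 window held 15, several of them in a short alternating repeat, whereas the Kdr window in the first intron held 8, the Tie1 window 6, and the Pecam1 and Tek windows 5 each.

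To ask how total cytosine modification at these genes differed between genotypes, the WGBS regions were first counted by direction. All 6 genes held at least 1 region with a higher level in Tet tcKO (a gain), as did 76.2% of all genes, and no member held a region with a lower level, which 4.35% of all genes did. A gain reached within 2 kb of a start site in all 6 genes, against 49.5% of all genes. With 1 kb, or by the midpoint of the gain, 5 genes held one, and with differences of at least 0.2, 4 did. The share of all genes was not computed under these settings. Gains covered a median of 5.36% of the bases of a member locus, with a range from 1.88% to 18.8%, and the median over all genes was 3.40% with quartiles of 0.346% and 7.82%. The members held a median of 7 gains and all genes a median of 2, counts that were not adjusted for locus length. Over the 49 gains with their 550 CpGs, the mean level per CpG was 48.5% in the controls and 65.3% after the loss of TET, a difference of 16.9 percentage points. The same mean over all 191164 gains of the genome went from 56.7% to 74.1%, a difference of 17.4 points. The median difference was 14.8 points at the members and 15.4 points genome-wide. Both describe called regions only, which had to differ to be listed, and not the rest of a locus.

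To ask the same of 5hmC, the bACE-seq regions were counted. All 6 genes held regions with less 5hmC in Tet tcKO (5hmC losses), as did 88.8% of all genes, and all 6 held one within 2 kb of a start site, against 79.4% of all genes. No member held a region with more 5hmC, and 0.343% of all genes did. Over the 146 losses with their 2056 CpGs, 5hmC was 15.1% in Cre- and 3.68% in Tet tcKO, so it fell by 11.4 points and 24.5% of the Cre- level was kept. Genome-wide, 592697 losses went from 16.1% to 3.86%, with 24.0% kept. The losses covered a median of 26.6% of the bases of a member locus, from 5.99% to 57.3%, and the median over all genes was also 26.6%. Unconverted cytosines count as 5hmC in both genotypes, and conversion was not analysed here. The authors put unconverted cytosine in bACE-seq at about 2%. With 1 or 2 points taken off both levels, an assumed correction, 19.1% or 12.9% was kept at the members.

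**Figure D1:**
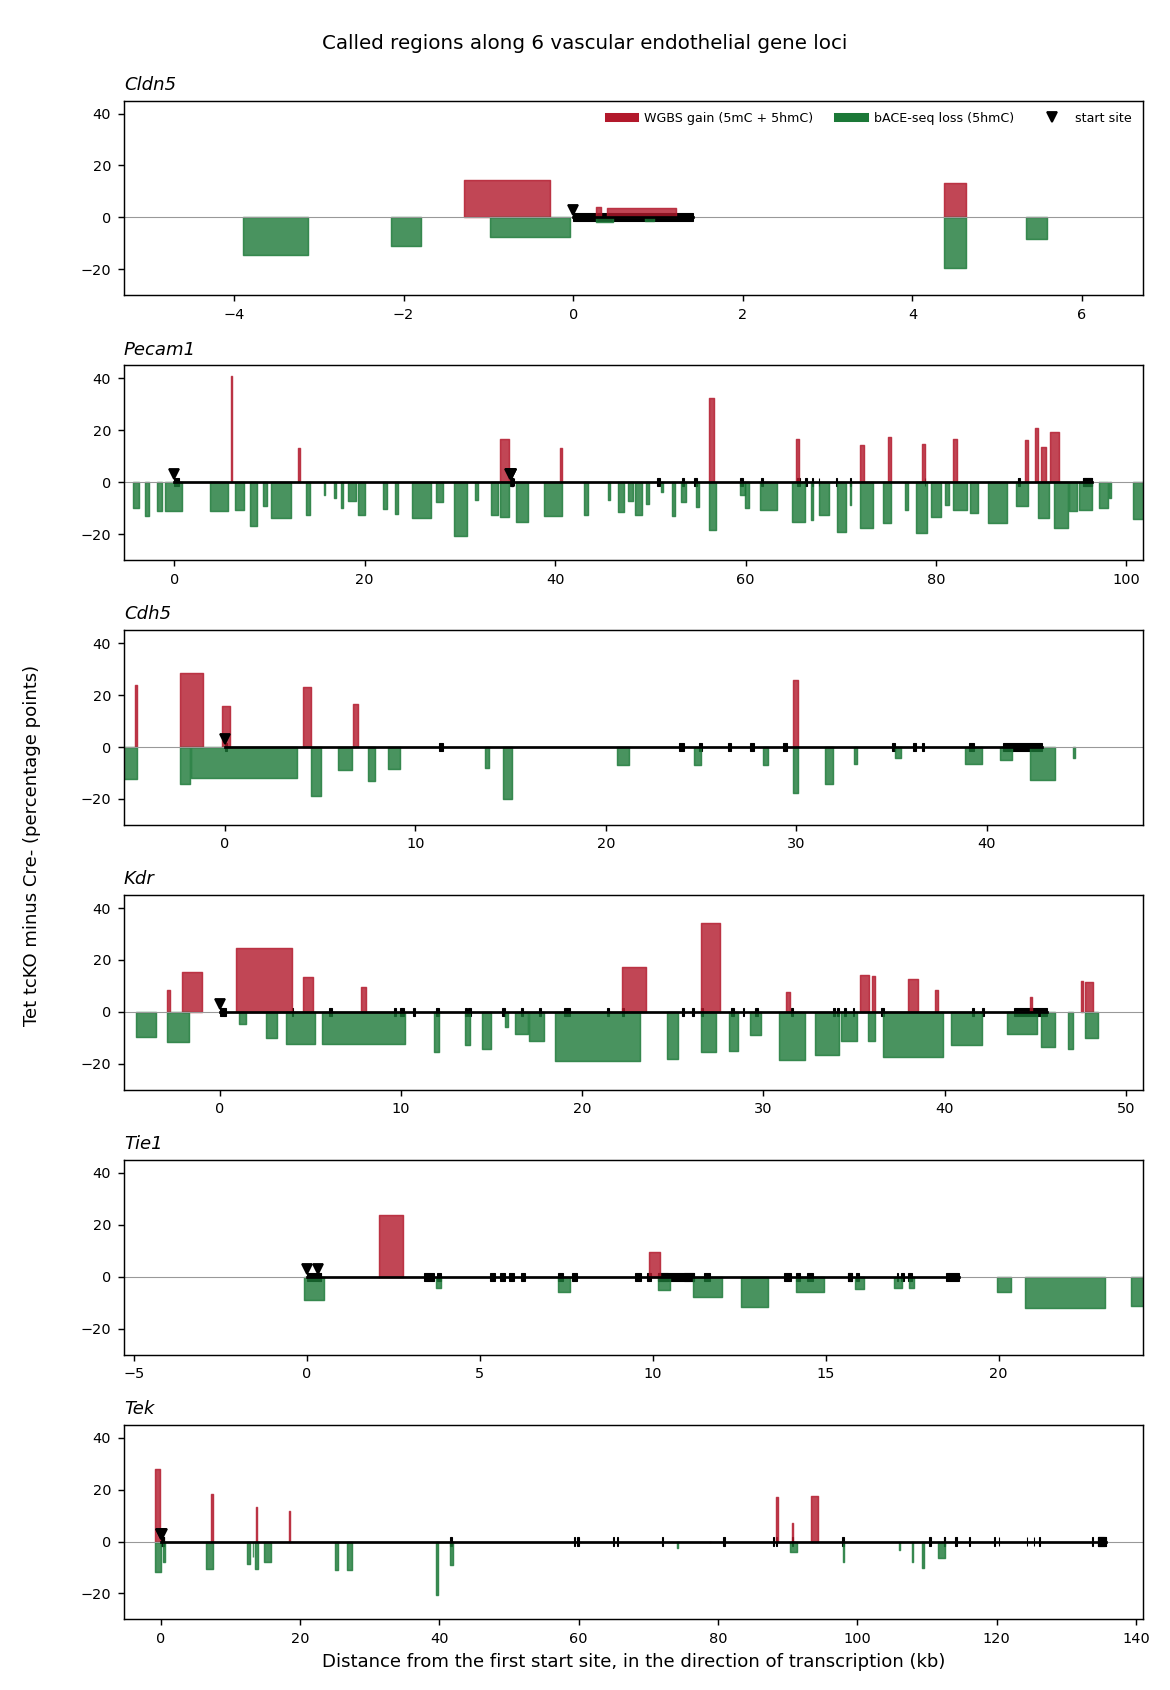
Maps of the 6 loci, with distance from the first start site in the direction of transcription (kb) on the horizontal axis and Tet tcKO minus Cre- (percentage points) on the vertical axis, WGBS gains as red bars above 0, 5hmC losses as green bars below it, exons as black boxes and start sites as triangles. Gains fill 18.8% of the short Cldn5 locus and 17.6% of the Kdr locus, but 1.88% of the long Tek locus.

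The junction genes came first. Cldn5 encodes claudin-5, the main tight junction protein of the endothelial barrier (chr16:18776847-18778262, + strand). Its locus held 4 gains with 102 of its 182 CpGs, or 56.0%, and gains covered 18.8% of its bases, a larger share than in 94.5% of all genes. The gene is short, at 1416 bp, so most of its locus of 11416 bp is flank. Upstream, from position -1294 to -273 relative to the start site, 21 CpGs (chr16:18775553-18776574) had a level of 49.3% in Cre- and 63.8% in Tet tcKO. Within the gene the levels were far lower. A region of 70 CpGs at chr16:18777247-18778053, which spans 403 coding and 404 untranslated bases and holds the CpG-rich window printed above, had 5.89% in Cre- and 9.63% in Tet tcKO. A second coding region of 7 CpGs (chr16:18777115-18777172) had 9.57% and 13.7%. The fourth gain, 4 CpGs downstream of the gene, had 78.6% and 91.8%. Cldn5 had the smallest mean rise of the 6 genes, 6.35 points, and 70 of its 102 CpGs in gains lay in the region with little modification in either genotype.

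The same layout was seen for 5hmC at Cldn5, where 7 losses were listed. Upstream, 31 CpGs (chr16:18775869-18776809) went from 10.3% to 2.86%, and 9 CpGs farther out (chr16:18774703-18775055) went from 16.0% to 4.83%. In the gene, a coding region of 16 CpGs went from 2.73% to 0.878% and a region of 12 CpGs in untranslated sequence from 1.78% to 0.497%, the lowest 5hmC levels in Cre- of all 146 losses. The neighbouring gene Cdc45 extends into the Cldn5 flank, where 1 gain and 2 bACE-seq regions lay over it.

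Cdh5 encodes VE-cadherin, the adhesion molecule of endothelial adherens junctions (chr8:104101625-104144511, + strand). Its 6 gains had the largest mean rise of the 6 genes, from 49.1% to 74.2%, or 25.1 points. The gain with the most CpGs, 37 at chr8:104099271-104100483, lay from position -2354 to -1142, held the repeat printed above, and went from 42.7% to 71.3%. A gain of 9 CpGs over the start site itself (chr8:104101489-104101926, position -136 to 301) started higher, at 70.9%, and reached 86.6%. Of 5hmC, a single loss of 83 CpGs and 5522 bp ran across the start site (chr8:104099873-104105394), the longest of the 146, and went from 16.1% to 4.05%. Just upstream of it a loss of 13 CpGs, starting at the same base as the upstream gain, went from 18.0% to 3.83%. A loss of 36 CpGs that held 485 coding bases near the end of the gene (chr8:104142341-104142965) had less 5hmC from the outset, 6.23% in Cre- and 1.39% in Tet tcKO. The antisense gene Gm29682 overlaps Cdh5, and 4 of the 6 gains lay over it. DNA methylation at shared bases cannot be assigned to either gene.

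Pecam1 encodes CD31, an adhesion molecule of the contacts between endothelial cells that is also found on platelets and leukocytes (chr11:106654217-106750628, - strand). Its 14 gains went from 56.2% to 74.7% and covered 5.67% of the locus, most of them in introns. The gene has an outer start site at 106750628 and 4 inner start sites from 106715259 to 106715394. The gain near a start site (chr11:106715433-106716455, 13 CpGs) lay at position -1061 to -39 of the inner sites and went from 66.0% to 82.7%. The bACE-seq list held a loss with the identical bounds, from 17.8% to 4.29%. At the outer start site no gain was listed within 2 kb, but 5hmC fell across it in 32 CpGs (chr11:106749830-106751549), from 15.7% to 4.68%. The largest single rise of all 49 gains was in a Pecam1 intron, where 4 CpGs (chr11:106744520-106744716) went from 29.2% to 70.1%. Another intronic gain of 13 CpGs (chr11:106693971-106694443) went from 43.1% to 75.5%, and the gain with the most CpGs, 19 near the 3′ end (chr11:106657728-106658665), from 36.8% to 56.2%.

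Pecam1 also held 61 of the 146 losses of 5hmC, over 47.7% of its locus, a larger share than in 79.9% of all genes. The most CpGs, 44, were in an intronic loss at chr11:106723642-106725698, which went from 17.1% to 3.41%. A second intronic loss of 34 CpGs (chr11:106667320-106668797) went from 15.0% to 4.21%. The other losses near its start sites had similar levels, namely 19.9% and 4.55% in 17 CpGs (chr11:106713522-106714748), 16.0% and 3.55% in 7 CpGs (chr11:106716645-106717359), and 16.1% and 5.02% in 9 CpGs (chr11:106751879-106752405). The highest 5hmC level in Cre- among all 146 losses, 28.4%, was also in a Pecam1 intron (chr11:106680069-106680977), where 9.03% was left in Tet tcKO. Milr1 extends into the Pecam1 flank, with 4 bACE-seq regions and no gain over it.

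**Figure D2:**
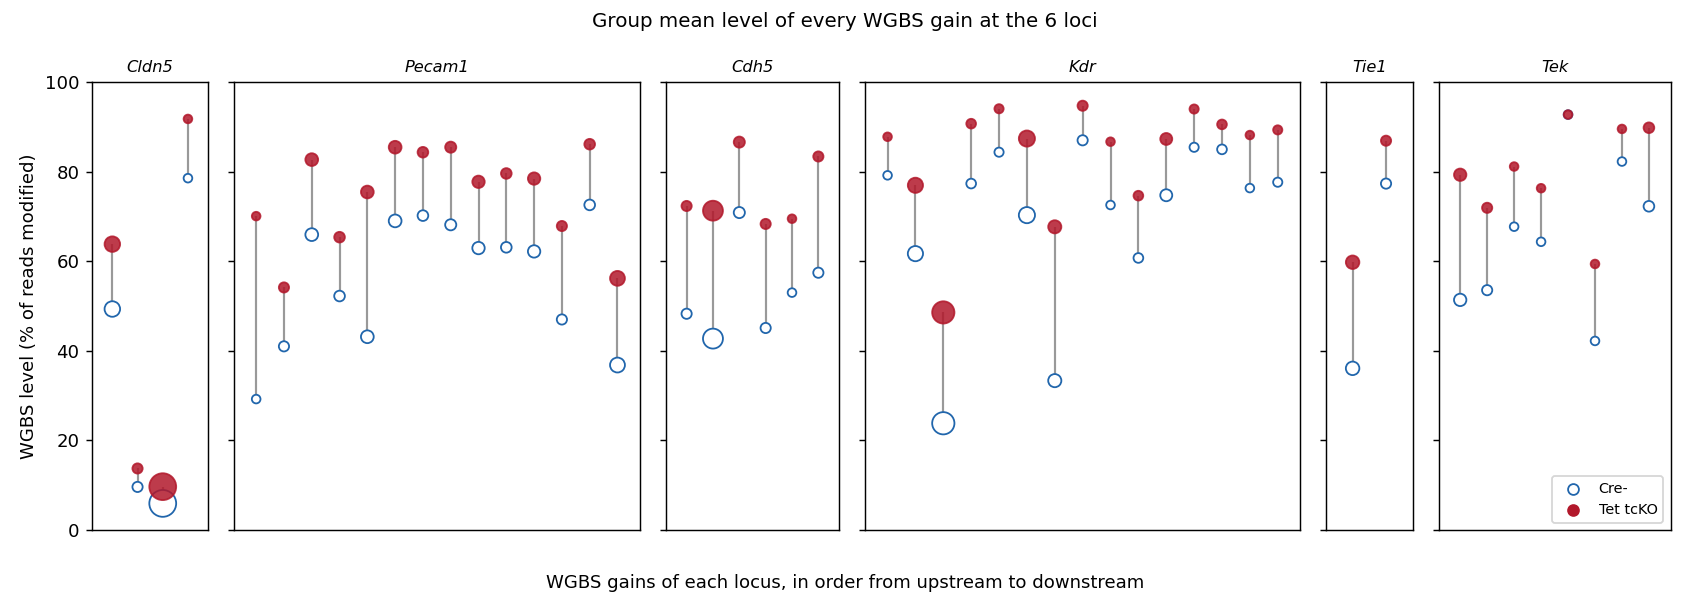
Mean WGBS level (%, vertical axis) of each of the 49 gains in Cre- (open blue circles) and Tet tcKO (filled red circles), joined by a line, in order from upstream to downstream within each gene, with the size of a circle set by its CpGs. The Cldn5 gains inside the gene lie lowest, at 5.89% and 9.57% in Cre-, and the largest Kdr circle goes from 23.8% to 48.6%.

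The receptors followed. Kdr encodes VEGFR2, the main signalling receptor for VEGF-A in endothelium (chr5:75932827-75978458, - strand). It held 15 gains over 17.6% of its locus, a larger share than in 93.8% of all genes, and their level went from 56.0% to 74.1%. The longest gain of the 6 genes, 3083 bp with 47 CpGs (chr5:75974484-75977566), lay at position 892 to 3974 and went from 23.8% to 48.6%. All but 12 of its bases, which are coding, lay in the first intron. It reached within 2 kb of the start site, and the Kdr window printed above lies in it. Upstream, 20 CpGs from position -2115 to -990 (chr5:75979448-75980573) went from 61.7% to 77.0%. Farther into the gene, 23 CpGs at chr5:75954961-75956261 went from 70.3% to 87.4% and 14 CpGs at chr5:75950849-75951903 from 33.3% to 67.7%. No region of either list lay over the start site.

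The 27 losses of 5hmC at Kdr covered 57.3% of the locus, a larger share than in 89.4% of all genes and the largest of the members. The most CpGs were in 2 losses of 53 CpGs each. The first (chr5:75955292-75959965) went from 23.5% to 4.55% and the second (chr5:75968247-75972797) from 17.9% to 5.29%. A loss of 32 CpGs upstream (chr5:75980150-75981360) went from 17.0% to 5.38%. Kdr held both ends of the range of 5hmC kept. In the first intron 8 CpGs (chr5:75976997-75977380) went from 4.95% to 0.228%, or 4.61% kept. That 0.228% lies below the authors' estimate of unconverted cytosine, so this share is uncertain. In 18 CpGs classed as exonic (chr5:75948568-75949207) the level went from 16.2% to 7.13%, or 44.1% kept.

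Tie1 encodes an orphan receptor that modulates signalling by the angiopoietin receptor (chr4:118471191-118490061, - strand). It had the fewest gains, 2, and a share of 3.62% in gains, larger than in 51.7% of all genes. At position 1771 to 2480 of the nearest start site 15 CpGs (chr4:118487275-118487984) went from 36.1% to 59.8%, without a listed loss of 5hmC over them. The other gain, 7 CpGs in an intron (chr4:118479846-118480179), went from 77.4% to 87.0%. Of its 13 losses of 5hmC, the one with the most CpGs, 29, lay in the downstream flank (chr4:118466991-118469303) and went from 13.8% to 1.77%. A loss of 20 CpGs (chr4:118475121-118475914) went from 7.46% to 1.50%, and 10 CpGs across the start sites (chr4:118489578-118490145) went from 10.8% to 1.73%. The share of 5hmC kept at Tie1 was 20.0%.

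Tek encodes TIE2, the receptor for the angiopoietins (chr4:94739289-94874976, + strand). It is the longest of the loci, at 145688 bp, and had the smallest shares of the members, 1.88% in gains and 5.99% in losses of 5hmC. Its CpGs were also the sparsest, 0.785 per 100 bp, against 1.22 to 1.59 in the others. Its 8 gains went from 63.1% to 80.3%. The gain with the most CpGs, 12 just upstream of the start site (chr4:94738496-94739164, position -793 to -125), rose from 51.4% to 79.3%. A loss of 5hmC began at the same base and ran on across the first start sites (chr4:94738496-94739362, 14 CpGs), from 16.4% to 4.87%. Downstream of it 7 CpGs (chr4:94739615-94739917) went from 12.04% to 4.11%. Deep in the gene, 8 CpGs at chr4:94832649-94833660 had a gain from 72.3% to 89.8%, and the loss of 5hmC with 13 CpGs at chr4:94829627-94830577 went from 4.31% to 0.464%. In 1 listed Tek gain (chr4:94817977-94818283) the level was 92.8% in both genotypes, with a difference of 0.0084 points. That entry lists 4 CpGs where the reference has 19, so its means do not cover the whole interval.

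Gains were then placed by their midpoint, with promoters defined as 2 kb on both sides of a start site. The 8 promoter gains had 34.1% in Cre- and 48.1% in Tet tcKO, and the 32 intronic gains 53.7% and 72.8%. The 4 exonic gains had 70.6% and 83.4%, and the 3 gains of the downstream flanks had 77.5% and 89.8%. The 2 gains of the upstream flanks had 59.5% and 78.0%. The 2 gains inside Cldn5 count among the promoter gains because the whole gene lies within 2 kb of its start site, and the low promoter level rests on them. The other 6 promoter gains had 53.2% in Cre- and 74.3% in Tet tcKO, close to the intronic gains. The gains were also grouped by their level in Cre-. The rise is measured from that level and a high level leaves less room above it, so an order between these groups is partly built in. The 15 gains below 50% in Cre- had a median rise of 23.3 points, the 15 gains from 50% to 70% one of 16.5 points, and the 19 gains above that one of 11.9 points. The Cldn5 gains inside the gene were exceptions, with rises of 3.74 and 4.12 points from the lowest levels of all. Only 6 of the 49 gains held at least 20 CpGs, and 11 rose by at least 20 points. The plot of WGBS levels shows this spread.

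For 5hmC the levels at the 5 kinds of position lay closer together in points, on a scale that is itself far lower. In Cre- the level was 13.7% in the 14 promoter losses, 11.9% in the 18 exonic losses, 16.0% in the 94 intronic losses, 16.6% in the 7 losses of the upstream flanks and 15.3% in the 13 losses of the downstream flanks. In Tet tcKO these levels were 3.57%, 3.30%, 3.74%, 4.73% and 3.41%. Between genes, the Cre- level over the listed losses was 17.5% at Kdr, 16.5% at Pecam1, 13.4% at Cdh5, 10.6% at Tek, 10.1% at Tie1 and 9.83% at Cldn5. The share kept was 28.5% at Cldn5, 25.6% at Kdr, 25.0% at Pecam1, 23.2% at Cdh5, 20.0% at Tie1 and 19.7% at Tek. With 1 point taken off both levels, Tie1 moved to 11.2% and Tek to 11.3%, and Cldn5, at 20.4%, came after Kdr, at 21.1%. With 2 points the shares ran from 0.176% at Tie1 to 16.0% at Kdr. With 1 mean per genotype, neighbours in these orders cannot be separated from the spread between libraries.

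**Figure D3:**
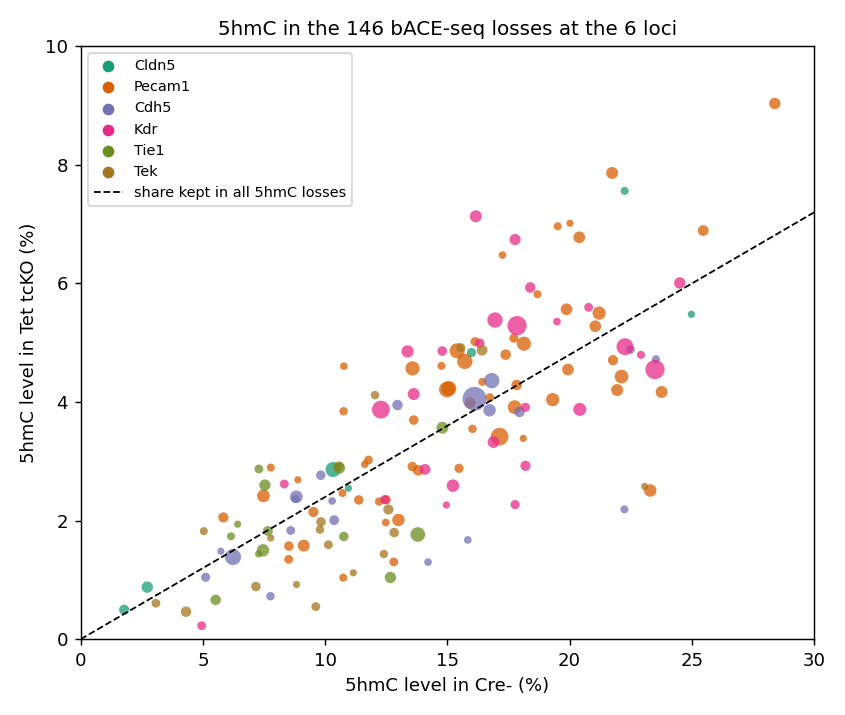
5hmC level (%) of each of the 146 losses in Cre- (horizontal axis) and in Tet tcKO (vertical axis), coloured by gene and sized by CpGs, with a dashed line at the 24.0% kept over all 5hmC losses of the genome. Points lie on both sides of the line and reach 28.4% in Cre- and 9.03% in Tet tcKO.

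The assays were then set side by side, since WGBS counts 5mC and 5hmC alike as modified. Of the 49 gains, 39 overlapped a loss of 5hmC by at least 1 bp, or 79.6%, and genome-wide 81.1% of gains did. Of the 146 losses, 38 overlapped a gain, or 26.0%, and genome-wide 24.1% did. The 108 losses at the members without a gain had less 5hmC in Cre- (13.8% against 16.9%) and a shorter median length (504.5 bp against 987 bp). A longer loss has more bases that can meet a gain, so the order in length is partly built in. Over the 39 overlapping gains the WGBS level went from 48.0% to 64.7% while 5hmC in the overlapping losses went from 15.2% to 3.78%. The difference between the assays, which is an estimate of 5mC alone if both read the same CpGs, went from 32.8% to 60.9%. The overlapping regions do not share all their CpGs.

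At these gains 5hmC thus stood for 31.7% of the modified cytosine in controls and 5.85% in Tet tcKO, and over all overlapping gains of the genome for 32.5% and 6.37%. Among the members the Cre- share was 36.4% at Cdh5, 34.6% at Pecam1, 31.5% at Kdr, 27.2% at Cldn5 and 22.9% at Tek. At Tie1 a single overlapping gain gave 9.74%. The highest shares belonged to gains with low WGBS levels in Cre-. They were 60.1% in the 19 CpGs near the 3′ end of Pecam1 and 59.0% in the Pecam1 gain that went from 43.1% to 75.5%. At Kdr they were 54.7% in the first intron and 54.6% in the gain that went from 33.3% to 67.7%. The first-intron value averages 3 overlapping losses, and the one with the most CpGs (chr5:75973206-75974780, 18.4% in Cre-) lies mostly outside the gain. The others had 12.4% and 4.95%, so the 54.7% does not rest on the CpGs of the gain alone. The loss behind the 60.1% at Pecam1 (chr11:106656817-106658248, 22.1% in Cre-) also lies mostly outside its gain. Where the WGBS level in Cre- was below 50%, the median share was 45.8% (10 gains with a loss of 5hmC over them), against 27.5% from 50% to 70% (13 gains) and 23.2% above that (16 gains). WGBS is the denominator of this share, so the order is partly built in.

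Promoter sequences of 300 bases, from 250 before to 50 after a RefSeq start (GRCm38.p6), were matched for Cldn5, Kdr, Tie1 and Tek. They held 12, 19, 7 and 3 CpGs, and the median over 32851 promoters was 7. A gain overlapped the Tek promoter only, and a loss of 5hmC overlapped those of Cldn5, Tie1 and Tek. The shares of all promoters with such an overlap were not computed, so these counts have no rate beside them. Kdr, with the most CpGs, had neither. The letters CCGGAA, a core of the sites of ETS factors, which act at many endothelial genes, were searched on both strands and found in 1 of the 4 promoters, that of Kdr, and in 14.9% of all promoters. The shorter GGAA, which lies within it, was in 3 of 4 and in 96.0% of all.

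Other endothelial genes, and genes of signals that act on vessels, were described by fixed lists, with no test. Not all of these genes are particular to vessel cells. Among 16 further endothelial receptors and adhesion molecules, 15 held a gain (76.2% of all genes did) and 9 held one near a start site (49.5% of all genes did). Their median share was 7.39% of the locus in gains and 39.5% in losses of 5hmC, beside 3.40% and 26.6% over all genes. Their shares in gains ran from 0 at Robo4 to 24.6% at Acvrl1, a receptor of the TGF-beta family in endothelium. Vwf and Nrp1, named after their values were seen, each also held a region with a lower WGBS level in Tet tcKO, as did 4.35% of all genes. The 6 VEGF and angiopoietin ligand genes, of which Pgf and Vegfb encode ligands of FLT1 and not of a member receptor, all held a gain (76.2% of all genes), with medians of 11.8% and 50.1%, from 1.54% at Angpt1 to 13.6% at Angpt2.

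Of 7 transcription factors of endothelium, 6 held a gain, near the 76.2% of all genes. Their medians were 4.02% in gains and 15.5% in losses of 5hmC, beside 3.40% and 26.6% over all genes, and their shares in gains ran from 0 at Tal1 to 7.33% at Fli1. All 10 genes of Norrin signalling and the barrier held a gain (76.2% of all genes), with medians of 6.35% and 33.5%, from 1.15% at Abcb1a to 56.0% at Slc2a1, the glucose transporter GLUT1, which neural retina also expresses. For other cells that do not arise from retinal progenitors, the median shares in gains were 4.26% over 5 pericyte genes and 5.38% over 6 microglial genes, and in losses of 5hmC 17.1% and 30.0%. The 4 rod genes Nrl, Nr2e3, Gnat1 and Pde6a had medians of 60.5% and 63.9%, from 19.5% at Pde6a to 67.0% at Nrl. The medians of the members were 5.36% in gains and 26.6% in losses of 5hmC, beside 3.40% and 26.6% over all genes. Both lay between those of pericytes and microglia and far below those of rods. Median locus length was 54259.5 bp for the members and 21946.5 bp for the rod genes, and its part in the shares was not tested.

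**Figure D4:**
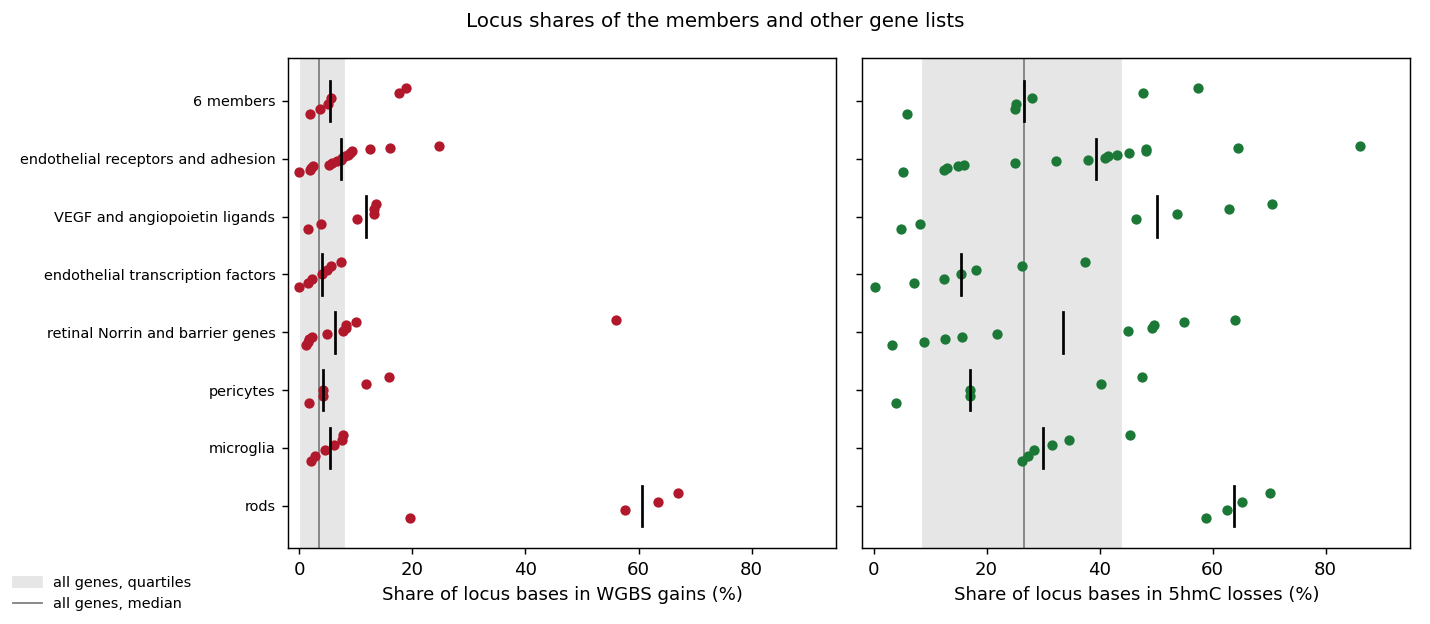
Share of locus bases (%) in WGBS gains (left) and in 5hmC losses (right) for the 6 members and 7 other gene lists, 1 point per gene with a bar at the median, and the median and quartiles of all genes as a line and a grey band. The members lie between 1.88% and 18.8% in gains, below the lowest rod gene at 19.5%.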

How the data were processed

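DNA of whole P21 retina was read by WGBS and bACE-seq in 3 Cre- and 3 Tet tcKO libraries per assay, grouped by their labels. According to the labels and methods, reads were trimmed by the authors with Trim Galore (0.4.4), aligned to mm10 with Bismark (0.18.2) at a mapping quality of at least 10, and turned into CpG levels with MethylDackel (0.6.1). They called DMRs with DSS, which smooths over neighbouring CpGs, tests every CpG (p threshold 0.01) and reports stretches that have 3 or more CpGs, span 50 bp or more, and are merged when less than 50 bp apart. Smoothing blurs region ends, and sparse CpGs yield fewer regions of the required size. The deposited level of each group is a fraction of modified reads, printed here as a percentage. The deposited number of CpGs per region is a whole number. Which mean belongs to which genotype follows the names of the lists. The authors' difference and area statistic for each region were not used.

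Changes were computed here as Tet tcKO minus Cre-, and means were weighted by CpGs, with Python (3.11.15), numpy (2.4.6), pandas (2.3.3) and matplotlib (3.10.9). The locus of a gene was its GENCODE M21 span with 5 kb on both sides, and any overlap of 1 bp counted. Region starts and CpG numbers were compared with GRCm38. No test was run, because replicate values, coverage and depth were not in the tables used here. The genes named are all 6 members, with the regions that reach within 2 kb of a start site and the 2 regions with the most CpGs per gene and list, and for other lists the highest and the lowest gene. Regions at the ends of a range (rise, 5hmC level, share kept, share of modified cytosine), the remaining Cldn5 gain, the Tek entry without a difference, and Vwf and Nrp1 were singled out after their values were seen. Members and lists were chosen with earlier results of these data known. Alternatives were other flanks, promoter widths, CpG minimums, differences, overlap by midpoint and unweighted means. Subtracting 1 or 2 points from 5hmC levels and leaving out the gains inside Cldn5 were added after seeing the data.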

Additional observations from a re-analysis of the deposited data

How the results depend on the processing

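Of 65 alternative values for 10 results, 55 lay within 1.5 times the reported value. A change of direction could not occur, because gains and losses were selected by their sign under every setting. Restricting both lists to regions whose genotypes differed by at least 0.2 moved most: the WGBS rise became 27.3 points, the change in 5hmC -20.6 points, the share of 5hmC kept 10.6%, the median locus share 1.66% in gains and 0.0820% in losses of 5hmC, the members with a loss of 5hmC 3, and those with one near a start site 0. This follows from the restriction, since 5hmC levels are low. The shares of all genes with such a loss were not computed under it. The share of 5hmC in modified cytosine had no value there. With a difference of at least 0.1, the locus share in losses of 5hmC was 15.2%. With at least 10 CpGs, the locus share in gains was 2.87%. Subtracting 1 or 2 points from the 5hmC levels, chosen after seeing the data, left 19.1% or 12.9% kept over the 6 genes. No paired analysis was possible because the lists hold 1 mean per genotype. Leaving out a library was not possible for the same reason, and depth was not analysed here.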
